A study of Mus musculus with 6 samples.

Results

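The transcripts described here encode the cofilins, the kinases that switch them off and the slingshot phosphatases that switch them on. They were taken as the probe sets whose gene symbol in the array annotation was Cfl1, Cfl2, Dstn, Limk1, Limk2, Tesk1, Tesk2, Ssh1, Ssh2 or Ssh3, which gave 10 probe sets, 1 for each gene, out of 22206 probe sets and 19505 named genes on the array. The cells were ID8, an established line derived from mouse ovarian surface epithelium, and their RNA was read on Affymetrix Clariom S mouse arrays. Both groups were deprived of serum for 24 h. One group then received recombinant CCL6 at 200 ng/mL for 6 h and the other was left unstimulated, with 3 cultures and 3 arrays in each group that the labels call biological replicates. CCL6 is a mouse chemokine made by macrophages and a ligand of CCR1, and the study followed the migration of ovarian cancer cells towards such ligands.

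Cofilin and destrin bind actin filaments, sever them and speed the loss of subunits from their pointed ends, which lets a moving cell rebuild its leading edge. Phosphorylation of a serine near the amino terminus by LIM and TES kinases stops this binding, and slingshot phosphatases remove the phosphate. An array reads the level of the transcripts and not the phosphorylation of the proteins.

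All 10 transcripts were above the background level of 4.85 on the log2 scale, which is the 95th percentile of 1452 probe sets for olfactory, vomeronasal and taste receptors. None of the 10 changed after CCL6 at an adjusted p under 0.05 in limma, as was the case for 0% of all probe sets. At an unadjusted p under 0.05 there were 0 of 10, against 3.08% of all probe sets, and with at least a 2-fold difference in addition there were 0 of 10, against 0.522%. Differences were positive for 3 and negative for 7 transcripts, of which Cfl1 and Ssh3, both at -0.01, turned to 0.01 with the shift of 0.02 that median centring gave every probe set. Their median was -0.03 on the log2 scale, beside 0.01 for the 12547 probe sets above background. Limma gave an adjusted p of 0.999 for each of the 10 transcripts, and the unadjusted p lay between 0.0935 for Ssh2 and 0.976 for Ssh3.

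**Figure D1:**
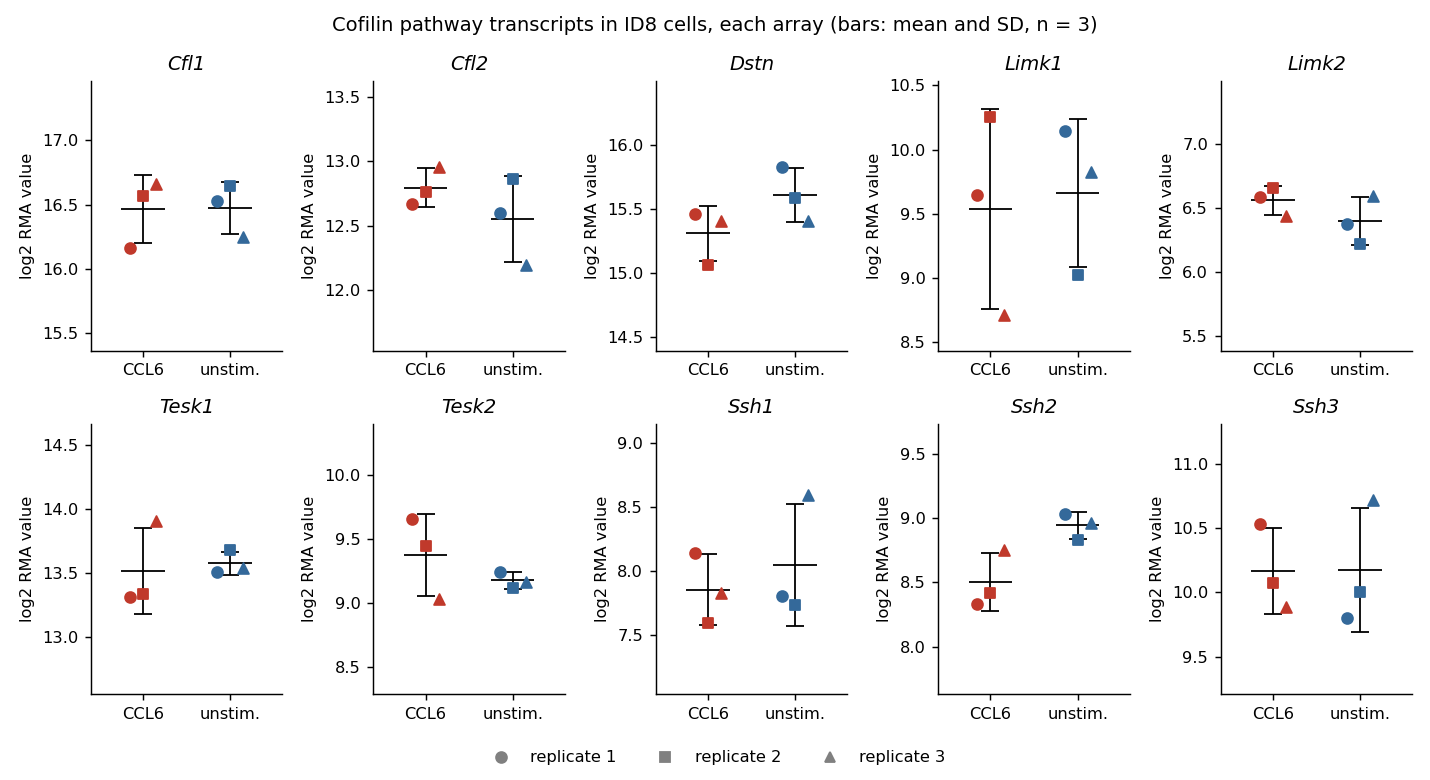
Log2 RMA values of the 10 transcripts on each array, with CCL6 in red and unstimulated cells in blue, replicate numbers as symbols and the mean with its SD (n = 3) as bars; every panel spans the same height. Only for Ssh2 do the 3 CCL6 arrays, 8.33 to 8.76, all lie below the 3 unstimulated arrays, 8.83 to 9.03.

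The arrays themselves were alike in scale, with medians between 5.42 and 5.49 and correlations between 0.979 and 0.994 for any pair. They did not fall apart by treatment, since the first principal component held 50.8% of the variance and placed CCL6 replicates 1 and 2 with unstimulated replicate 3. Those 3 arrays also had the higher mean log2 values of 28 proliferation genes, 12.46, 12.84 and 12.75, against 11.21 in CCL6 replicate 3 and 11.37 and 11.55 in unstimulated replicates 1 and 2. Of 11 markers of ovarian surface and mesothelial cells 10 were above background, including Upk3b, Krt18, Krt19 and Wt1, whereas Epcam was not. Krt7 was counted only through its CCL6 mean of 5.09, since its unstimulated mean was 4.78. Of the markers of other cells, 1 of 7 leukocyte genes, 0 of 5 endothelial genes and 1 of 8 muscle genes were above background, namely Cd14 and Ckm. Ckm was counted only through its unstimulated mean of 4.90, since its CCL6 mean was 4.67.

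Cfl1, the main cofilin of cells other than muscle, read 16.16, 16.57 and 16.66 on the 3 arrays of CCL6 cells, against 16.53, 16.64 and 16.25 in unstimulated cells. The lowest array of each group, CCL6 replicate 1 and unstimulated replicate 3, stood apart from the other 4, and the groups overlapped almost completely. The log2 difference of Cfl1 was -0.01 (SE 0.25), with a 95% interval of -0.58 to 0.56, which is 0.669-fold to 1.47-fold. Without CCL6 replicate 1 the difference was 0.14.

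Cfl2, the cofilin that predominates in skeletal muscle, read 12.67, 12.76 and 12.96 in CCL6 cells, against 12.60, 12.86 and 12.19 in unstimulated cells. Unstimulated replicate 3 was the low array. The log2 difference was 0.24 (SE 0.26, interval -0.34 to 0.83), and it became 0.07 without that array, 0.40 without unstimulated replicate 2 and -0.02 without both arrays numbered 3. Dstn, which encodes destrin or actin depolymerising factor, read 15.46, 15.07 and 15.41 in CCL6 cells, against 15.83, 15.58 and 15.41 in unstimulated cells. The difference was -0.30 (SE 0.24, interval -0.85 to 0.26), and CCL6 replicate 1 lay above unstimulated replicate 3. CCL6 replicate 3 was level with unstimulated replicate 3, both at 15.41. Over the 12 alternatives that can move a difference, that of Dstn lay between -0.44 and -0.17, with -0.17 without CCL6 replicate 2.

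Among the kinases, Limk1 had by far the widest scatter. Limk1, which encodes a LIM kinase that ROCK and PAK kinases activate, read 9.65, 10.26 and 8.71 in CCL6 cells, against 10.14, 9.03 and 9.83 in unstimulated cells. Its highest and its lowest array were both CCL6 arrays, 2.92-fold apart. Means were 9.54 ± 0.78 (SD, n = 3) after CCL6 and 9.67 ± 0.57 (SD, n = 3) in unstimulated cells. The difference was -0.13 (SE 0.44) and its interval, -1.12 to 0.87, reached from 2.17-fold lower to 1.82-fold higher. The sign turned without CCL6 replicate 3, to 0.29, and without unstimulated replicate 1, to 0.11, whereas the difference was -0.48 without CCL6 replicate 2 and -0.44 without unstimulated replicate 2.

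Limk2, the second LIM kinase, was read with a smaller scatter, at 6.59, 6.66 and 6.44 in CCL6 cells, against 6.38, 6.22 and 6.59 in unstimulated cells. The log2 difference was 0.16 (SE 0.23, interval -0.36 to 0.69). Unstimulated replicate 3 lay among the CCL6 arrays, and over the 12 alternatives that can move it the difference lay between 0.07, without unstimulated replicate 2, and 0.32, without both arrays numbered 3. Tesk1, a kinase first found in testis that also phosphorylates cofilin, read 13.31, 13.34 and 13.91 in CCL6 cells, against 13.51, 13.68 and 13.54 in unstimulated cells. CCL6 replicate 3 was its highest array and the other CCL6 arrays its lowest. The difference was -0.06 (SE 0.25, interval -0.63 to 0.52) and turned to 0.04 without CCL6 replicate 1. Tesk2, the related kinase, read 9.65, 9.44 and 9.03 in CCL6 cells, against 9.24, 9.12 and 9.16 in unstimulated cells. Its difference was 0.20 (SE 0.25, interval -0.37 to 0.77), and CCL6 replicate 3 was the lowest of the 6 arrays although the other CCL6 arrays were the highest. It was 0.06 without CCL6 replicate 1 and 0.37 without CCL6 replicate 3.

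**Figure D2:**
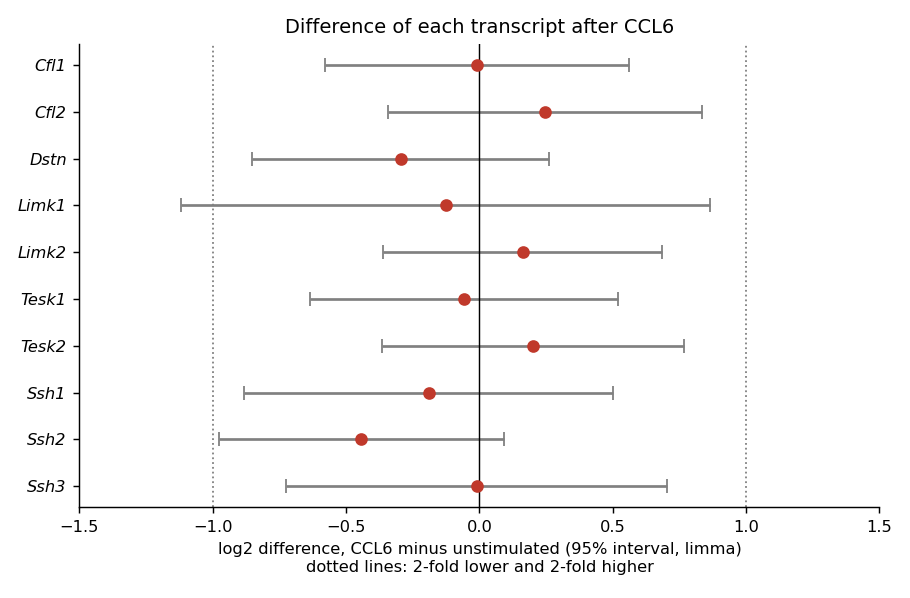
Log2 difference of each transcript, CCL6 minus unstimulated, with its 95% interval from limma (n = 3 arrays per group). The intervals of all 10 span 0, and 9 of 10 stay within the dotted lines at 2-fold; that of Limk1 reaches -1.12.

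Of the phosphatases, Ssh2 had the largest difference of the 10 transcripts and was the only one whose groups did not overlap. Ssh2, a slingshot phosphatase that dephosphorylates cofilin, read 8.33, 8.42 and 8.76 in CCL6 cells, against 9.03, 8.83 and 8.96 in unstimulated cells. The highest CCL6 array was 0.08 below the lowest unstimulated array. Means were 8.50 ± 0.22 (SD, n = 3) after CCL6 and 8.94 ± 0.10 (SD, n = 3) in unstimulated cells, a difference of -0.44 (SE 0.23, interval -0.98 to 0.09), or 1.36-fold lower. In limma this had p = 0.0935 before and 0.999 after adjustment, and the exact permutation test gave 0.1, the smallest value that 3 arrays against 3 can reach. That 1 of 10 transcripts lacked overlap is to be read against 8.19% of all probe sets, or 4.41% with every CCL6 array lower, and that 1 of 10 had an unadjusted p under 0.1 against 7.15%. The difference of Ssh2 stayed negative in the 12 alternatives that can move it, from -0.57 to -0.36. The lowest unadjusted p over all 17 alternatives was 0.036, from the general 2-group test that the study's methods name, and the adjusted p ran from 0.511 to 1.00.

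Ssh1, the slingshot phosphatase best known for acting on cofilin at the leading edge, read 8.14, 7.59 and 7.83 in CCL6 cells, against 7.80, 7.74 and 8.59 in unstimulated cells. The difference was -0.19 (SE 0.30, interval -0.88 to 0.50), but without unstimulated replicate 3 it was 0.08. Ssh3, the third family member, read 10.54, 10.07 and 9.89 in CCL6 cells, against 9.80, 10.01 and 10.72 in unstimulated cells. Its difference was -0.01 (SE 0.31, interval -0.72 to 0.70) and became 0.26 without unstimulated replicate 3 and -0.20 without unstimulated replicate 1. For both genes unstimulated replicate 3 was the highest array and CCL6 replicate 1 the next. Averaged over the 3 phosphatases, deviations from the mean of the 6 arrays were 0.06, -0.25 and -0.12 in CCL6 cells, against -0.07, -0.09 and 0.48 in unstimulated cells. Unstimulated replicate 3 was the highest array of this average.

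With 95% intervals taken singly, 9 of the 10 transcripts were bounded within 2-fold in both directions, against 59.3% of the probe sets above background. The upper bounds of all 10 lay below 2-fold, from 0.09 for Ssh2 to 0.87 for Limk1 on the log2 scale. The precision behind these bounds differed between the genes. The SE was 0.44 for Limk1, 0.31 for Ssh3, 0.30 for Ssh1 and 0.23 to 0.26 for the other 7. Limma draws the spread of each gene towards that of all probe sets, so the SE varied less than the residual SD. The residual SD within groups was 0.69 for Limk1, which exceeded that of 86.4% of the probe sets above background. It was 0.41 for Ssh3 and 0.39 for Ssh1, close to the median of 0.38 over those probe sets. The other 7 had values of 0.16 to 0.26, and between 7.17% and 26.6% of probe sets above background had a smaller one.

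**Figure D3:**
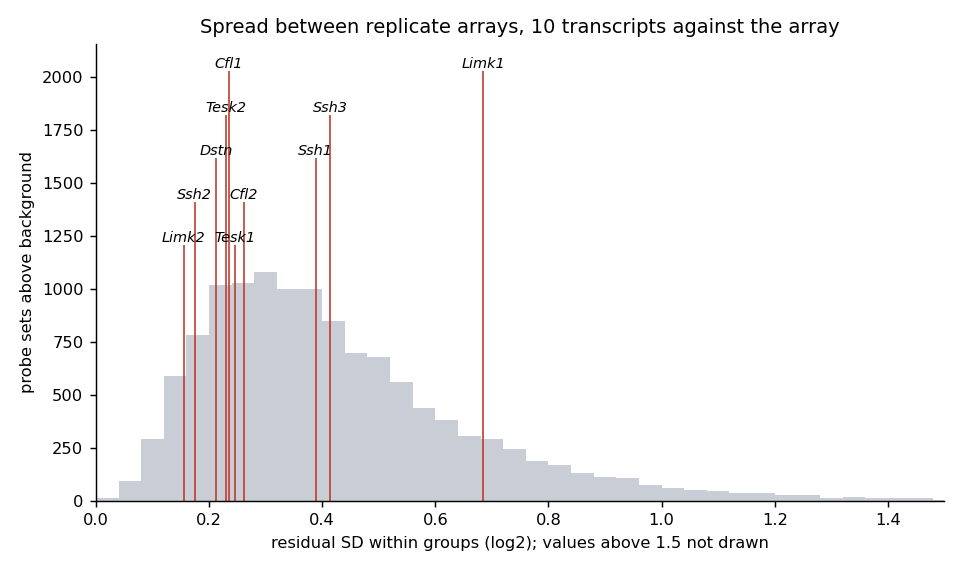
Histogram of the residual SD within groups (log2) over the 12547 probe sets above background, with lines for the 10 transcripts. Limk1 lies in the upper tail at 0.69, Ssh1 and Ssh3 at 0.39 and 0.41, and the other 7 between 0.16 and 0.26.

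Across the 6 arrays the 10 transcripts did not share 1 pattern. Over 45 pairs the highest Pearson correlation was 0.86, for Ssh1 with Ssh3, followed by 0.70 for Cfl1 with Cfl2. Correlations below 0 were as large, at -0.89 for Tesk1 with Tesk2, -0.89 for Cfl1 with Ssh3, and -0.83 for both Cfl2 with Ssh1 and Limk1 with Tesk1. These are descriptions over n = 6 arrays that themselves form 2 sets on the first component. Limk1 was low in CCL6 replicate 3 and unstimulated replicate 2, where proliferation genes were low too, but high in unstimulated replicate 1, where they were also low. Cfl2 was lowest in unstimulated replicate 3, where proliferation genes were high. With the mean of the proliferation genes as a covariate, Limk1 differed by -0.28 (SE 0.37), Ssh2 by -0.41 (SE 0.23) and Cfl1 by 0.04 (SE 0.24), and no transcript reached an unadjusted p under 0.05. The part of proliferation in these values was not tested beyond this fit.

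**Figure D4:**
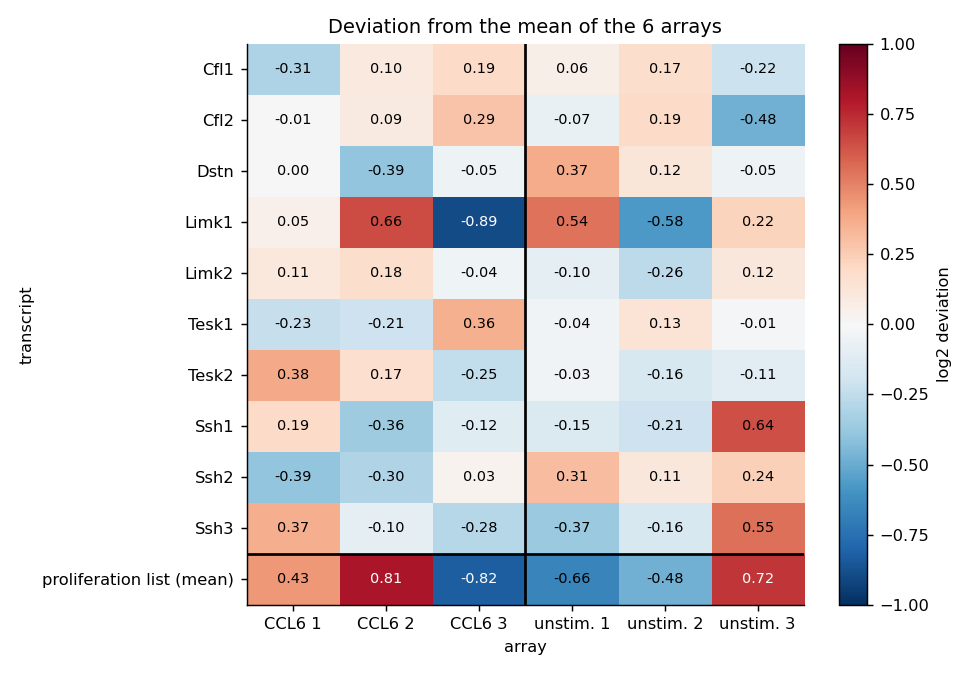
Deviation of each transcript from its mean over the 6 arrays (log2, colour and number), with CCL6 arrays on the left and the mean of 28 proliferation genes in the bottom row. Limk1 spans -0.89 to 0.66 and both ends are CCL6 arrays, whereas Ssh1 and Ssh3 are both highest in unstimulated replicate 3, at 0.64 and 0.55.

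Among 11275 other named probe sets above background, the patterns nearest to Cfl1 were those of Poglut3, Ccdc7a and Yap1, with Pearson correlations of 0.997, 0.996 and 0.995 over 6 arrays. The patterns nearest to Limk1 were those of Erg28, Ndrg2 and Palb2, at 0.99, 0.98 and 0.98. A correlation over 0.9 was reached by 223 of the 11275 probe sets for Cfl1 and by 51 for Limk1.

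The stretches before the transcription start of the pairs with the highest positive correlations, Ssh1 with Ssh3 and Cfl1 with Cfl2, are shown so that their base composition can be compared. They are the 250 bases upstream of the first start that RefSeq lists on GRCm38.p6, 5′ to 3′ on the strand of the gene, with the GC box (GGGCGG, or CCGCCC on the other strand) in capitals. The array values carry no coordinates of their own.
Ssh1: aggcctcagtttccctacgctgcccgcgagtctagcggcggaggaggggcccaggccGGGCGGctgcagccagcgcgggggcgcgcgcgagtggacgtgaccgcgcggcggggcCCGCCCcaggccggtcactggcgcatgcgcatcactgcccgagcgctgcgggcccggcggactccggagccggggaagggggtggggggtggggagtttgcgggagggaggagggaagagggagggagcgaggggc
Ssh3: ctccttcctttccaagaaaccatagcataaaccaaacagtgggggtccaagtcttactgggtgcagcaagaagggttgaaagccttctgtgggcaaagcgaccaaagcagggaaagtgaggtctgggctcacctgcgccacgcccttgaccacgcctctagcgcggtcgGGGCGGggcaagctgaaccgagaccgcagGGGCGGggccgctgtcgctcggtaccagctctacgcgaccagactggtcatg
Cfl1: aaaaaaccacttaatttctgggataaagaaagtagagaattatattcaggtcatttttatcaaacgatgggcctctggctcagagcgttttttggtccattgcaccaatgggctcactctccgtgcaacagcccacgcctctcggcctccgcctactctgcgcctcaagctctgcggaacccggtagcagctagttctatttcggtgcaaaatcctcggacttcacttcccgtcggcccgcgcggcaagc
Cfl2: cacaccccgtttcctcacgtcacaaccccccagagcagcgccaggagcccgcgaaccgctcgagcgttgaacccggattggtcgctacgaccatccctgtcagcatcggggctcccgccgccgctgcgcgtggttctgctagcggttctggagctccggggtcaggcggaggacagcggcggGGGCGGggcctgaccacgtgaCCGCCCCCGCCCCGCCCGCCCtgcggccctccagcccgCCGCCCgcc

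The Ssh1 stretch is chr5:113993791-113994040 on the minus strand and the Ssh3 stretch is chr19:4269234-4269483 on the minus strand. Both held 2 GC boxes, in 77.6% and 60.8% G and C. The Cfl1 stretch, chr19:5490205-5490454 on the plus strand, held no GC box and 52.0% G and C, close to the median of 52.4% over all such stretches. The Cfl2 stretch, chr12:54862878-54863127 on the minus strand, held 6 matches to the GC box, some of them overlapping, in 74.4% G and C. Over all 15 stretches of the 10 genes, 11 held a GC box, against 32.7% of 32851 stretches in the whole table. The CCAAT box (CCAAT or ATTGG) was in 6 of 15 against 33.8%. A CArG box, the motif that serum response factor binds, was in 0 of 15 on these letters, against 1.47%. Several genes have more than 1 stretch and some of these overlap. A match is a description of letters and not of factor binding.

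Other genes of the cofilin pathway were read through 5 lists with 55 measured members, of which 50 were above background. Limma called 0 of them at an adjusted p under 0.05 and 0 at an unadjusted p under 0.05. Groups did not overlap for 1 of 55, which is 1.82%, against 8.19% of all probe sets.

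Upstream of the LIM kinases, 4 of 11 measured GTPases and kinases were higher and 7 lower, none past the test, with a median log2 difference of -0.06. Cdc42bpa, which encodes an MRCK kinase that phosphorylates LIM kinases, differed by 0.26 (SE 0.30). The PAK kinase gene Pak4 differed by -0.21 (SE 0.26) and Cdc42, whose product activates PAK kinases, by 0.18 (SE 0.23). Of 8 binding partners and inhibitors of LIM and TES kinases 7 were above 0, with a median of 0.15, where 51.4% of all probe sets above background were above 0 and their median was 0.01. Spred1, whose protein binds TESK1, differed by 0.31 (SE 0.31) and the chaperone gene Hsp90aa1 by 0.44 (SE 0.51), while Parva, the gene of a focal adhesion adaptor, differed by -0.16 (SE 0.25).

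Of 15 other phosphatases and 14-3-3 proteins measured, whatever their level, 11 were higher and 4 lower, with a median of 0.13. Among all probe sets above background the share above 0 was 51.4%. Pdxp, the gene of chronophin, another phosphatase of cofilin, read 5.32, 5.30 and 4.49 in CCL6 cells, against 4.58, 4.28 and 4.45 in unstimulated cells. Its unstimulated mean of 4.44 was not above background, nor was CCL6 replicate 3. The CCL6 mean was 1.14-fold above the background level, but the limma interval of the log2 difference, -0.06 to 1.26, spanned 0. There was no call at either threshold. Ppp1cc, a catalytic subunit of protein phosphatase 1, was the gene without overlap, at 14.67, 15.36 and 14.58 in CCL6 cells, against 14.35, 14.43 and 14.41 in unstimulated cells. The difference was 0.47 (SE 0.27), and CCL6 replicate 2 was the highest array. Ywhaz, a 14-3-3 protein gene, differed by 0.29 (SE 0.25).

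The ADF-homology family and the cofactors of cofilin were split at 8 of 14 higher and 6 lower, with a median of 0.06. Among those above background 6 of 11 were higher. Coro1b, the gene of a coronin that recruits slingshot to actin, differed by -0.45 (SE 0.25), Gmfb, which acts on branched actin, by 0.34 (SE 0.24) and the drebrin-like gene Dbnl by -0.34 (SE 0.30). Among actins, profilins and tropomyosins 4 of 7 were higher, with a median of 0.03, and 4 of 6 among those above background. Tpm3, a tropomyosin whose product coats filaments, read 15.15, 15.92 and 15.50 in CCL6 cells, against 14.96, 15.23 and 14.66 in unstimulated cells, a difference of 0.58 (SE 0.29). Pfn2 differed by -0.19 (SE 0.46) and Tpm4 by 0.11 (SE 0.27). Actb, the substrate of the cofilins, read 17.95, 18.04 and 18.15 in CCL6 cells, against 18.31, 18.21 and 17.91 in unstimulated cells.

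**Figure D5:**
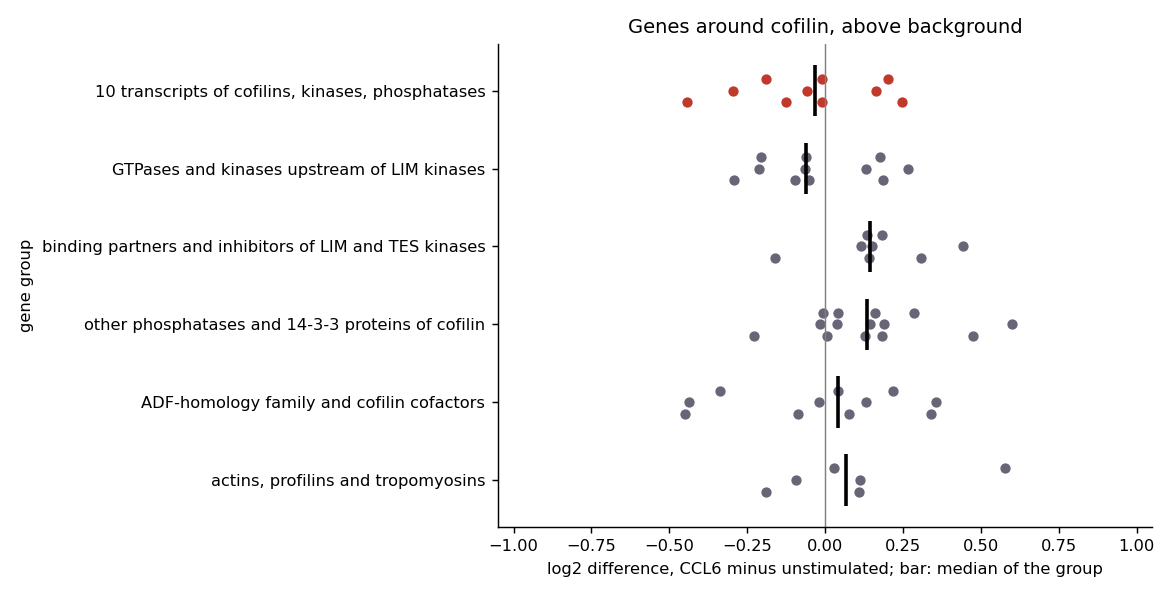
Log2 differences, CCL6 minus unstimulated, of the 10 transcripts (top) and of the 50 other pathway genes above background in 5 groups; each point is a gene and each bar a median. Medians of the 5 groups over the plotted genes lie between -0.06 and 0.15, with Tpm3 at 0.58. Pdxp is drawn at its fitted difference although its unstimulated mean is not above background, so its place is no estimate of the fold. Pdxp passed the background only through its CCL6 mean and counts in the median of its group.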

How the data were processed

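The authors deposited log2 values from RMA (background correction, normalization across arrays and a single summary for each probe set). For the RMA software and its version, the genome build and filters, the answer is not given in the sources used here. That the log has base 2 was inferred, since values run between 1.93 and 19.2. Precision is limited by having 3 arrays per group. The annotation gave a single symbol to 19572 probe sets, several to 0 and none to 2634. RefSeq gene identifiers (GRCm38.p6) returned the same symbol for all 10 genes. The fit took all 6 arrays and used limma (version 3.58.1, lmFit and eBayes, under R version 4.3.3); its p-values are two-sided and were adjusted by Benjamini-Hochberg across the 22206 probe sets. Groups follow the sample titles. P-values rest on the spread between these cultures, which limma draws for each probe set towards that of all probe sets. An exact two-sided permutation test over the arrays stood beside it. The named genes were the 10 genes, up to 3 genes above background with the smallest unadjusted p in each pathway list, and the 3 patterns nearest to Cfl1 and Limk1; Actb and the marker genes were named after their values were seen. The genes and lists were chosen with earlier results of these data known. Scripts were tested on simulated data. Cfl1 and actin genes may share probe sequence with near-identical copies. Some list genes are not analysed here.

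Values were also rescaled by quantiles, cyclic loess or array medians. The fit was repeated on probe sets above background or with a symbol, with robust variances and a trend on intensity, with weights per array, with a replicate block, with a proliferation covariate, and with arrays left out singly or both numbered 3 together. The methods' Student test, an adjusted p under 0.1 and a background at the 99th percentile were tried too. Protein sequences were not used here.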

Additional observations from a re-analysis of the deposited data

How the results depend on the processing

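Under 17 alternatives no member of the 10 was called at an adjusted p under 0.05, and the lowest adjusted p was 0.511. In 5 of them only the test or the set of probe sets changes, so the differences equal the first ones. In the other 12 alternatives, 99 of 120 differences kept their direction and 21 turned. Dstn, Limk2, Tesk2 and Ssh2 did not turn in those 12. After median centring, a common shift of 0.0213, Cfl1 was 0.0103 and Ssh3 0.0115, and with array weights Limk1 was 0.0862 and Ssh3 0.10. With the proliferation covariate Cfl1 was 0.0417 and Tesk1 0.00655. Without both arrays numbered 3 Cfl2 was -0.0170, Limk1 0.37, Ssh1 0.10 and Ssh3 0.40. Leaving out 1 array at a time gave -0.12 to 0.14 for Cfl1, -0.48 to 0.29 for Limk1, -0.25 to 0.0449 for Tesk1, -0.34 to 0.0836 for Ssh1 and -0.20 to 0.26 for Ssh3. It gave 0.07 to 0.40 for Cfl2, -0.39 to -0.17 for Dstn, 0.07 to 0.26 for Limk2, 0.06 to 0.37 for Tesk2 and -0.57 to -0.36 for Ssh2. Those for Tesk1 turned without CCL6 replicate 1 or 2.

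The count of probe sets at an unadjusted p under 0.05 was 685. It was 344 over probe sets above background, where fewer were tested, 1129 with the proliferation covariate, 428 to 1005 without 1 array and 2491 without both arrays numbered 3. The methods' test called 1 probe set after adjustment over the whole array. It had 1 of the 10, Ssh2, at an unadjusted p under 0.05, against 812 of all 22206 probe sets. Of 55 pathway genes 1 passed an unadjusted p under 0.05 with the intensity trend (Tpm3), against 662 of all 22206 probe sets. With array weights 1 passed (Pdxp), against 928 of all probe sets. Without 1 array 0 to 1 passed, against 428 to 1005. Without both arrays numbered 3 there were 6, against 2491. The causes were not tested. Samples with the same replicate number did not deviate together, with correlations of -0.08, -0.23 and -0.66. Deviations from a mean of 3 arrays depend on each other, so this does not settle whether the numbers pair the samples. With the replicate block 474 probe sets had an unadjusted p under 0.05, 0 were called, and Ssh2 differed by -0.44 with an SE of 0.26.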
